A study of Drosophila melanogaster with 2 samples.

Results

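Repo, a homeodomain protein, is the transcription factor that marks most glia, which support neurons. Weak promoter peaks of tagged Repo are described here: 7221 peaks at the starts of protein-coding genes that did not enter the authors' optimal peak list, out of 30000 peaks in the pooled list. Chromatin immunoprecipitation and sequencing (ChIP-seq) with an antibody against green fluorescent protein (GFP) was done on whole Drosophila melanogaster embryos of 0 to 24 h, mixed in sex, from a transgenic line that stably expresses repo with GFP at its C-terminus. Chromatin was sonicated to 200 to 800 bp. There was 1 group, labelled repo-GFP, with 2 biological replicates numbered 1 and 3, so nothing here compares genotypes, stages or treatments. The line is the only model used, and the chromatin of all embryonic cell types was pooled, glia being 1 type among many. Fewer cells with Repo at a place and less Repo per cell therefore cannot be told apart.

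The members were chosen by their pooled signal and position. Peaks were called by the authors in each replicate and in both together. A pooled peak was a member when its summit, the base of highest signal, lay in none of the 2697 optimal peaks and no more than 500 bp from where transcription of a protein-coding gene starts (the TSS). The optimal list was the authors' subset kept after an irreproducible discovery rate (IDR) step, which compares peak ranks between replicates, and its peaks were the highest of the pooled list by signal. The pooled list holds peaks and background made as input for that step. Members may therefore include background, and how many do was not tested. Members made up 26.4% (Wilson 95% interval 25.9 to 27.0%) of the 27302 pooled peaks outside the optimal list. The other weak peaks included 8133 in introns, 6926 in coding exons and 3609 between genes. The comparison set was the 1487 optimal promoter peaks, picked by the same distance rule.

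A promoter is the stretch around a TSS where RNA polymerase II and its general factors assemble. Fly promoters carry short core elements. The TATA box and the Initiator are common at regulated genes, whereas the sites of the zinc finger protein M1BP and of the DNA-binding factor Dref are found at broadly expressed genes. Homeodomain factors such as Repo recognise short A and T rich words, and CAATTA is a reported Repo site.

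A few promoter sequences show what the words compared below look like at both kinds of peak. For each word, a weak peak and an optimal peak of high pooled signal were picked as examples. The word lay upstream of the TSS, outside annotated untranslated and coding sequence. Not all chromosomes were searched, so higher peaks with the word may exist. The sequences were taken from the RefSeq genome sequence of dm6. Each runs 5′ to 3′ on the strand of the gene, with the word or its reverse complement in capitals and 30 bases on either side. The Dref word TATCGATA lay 57 bp upstream of the TSS of Atg17 and 46 bp upstream of that of Shc.
Atg17, weak, chr3R:5669622-5669689, plus strand: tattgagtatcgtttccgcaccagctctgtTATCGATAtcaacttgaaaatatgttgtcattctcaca
Shc, optimal, chr3L:9426930-9426997, plus strand: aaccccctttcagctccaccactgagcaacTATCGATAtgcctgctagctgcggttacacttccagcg
The core word CANCNCTA of the promoter element known as Ohler motif 7 is shown at larp and, on the other strand, at Shc.
larp, weak, chr3R:28336504-28336571, minus strand: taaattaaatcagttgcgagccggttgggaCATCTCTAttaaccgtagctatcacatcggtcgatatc
Shc, optimal, chr3L:9426762-9426829, plus strand: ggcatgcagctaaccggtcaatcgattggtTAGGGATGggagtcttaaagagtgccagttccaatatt
The reported Repo site is shown at CG9393 and, on the other strand, at CG18549.
CG9393, weak, chr3R:9563753-9563818, minus strand: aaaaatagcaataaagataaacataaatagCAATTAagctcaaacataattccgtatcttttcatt
CG18549, optimal, chr3R:12449080-12449145, plus strand: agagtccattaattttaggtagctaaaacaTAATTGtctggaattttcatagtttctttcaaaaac
The E-box CACCTG, which Snail can bind, is shown at a Notch target gene and at cbt, which encodes a zinc finger factor.
E(spl)m7-HLH, weak, chr3R:26036778-26036843, plus strand: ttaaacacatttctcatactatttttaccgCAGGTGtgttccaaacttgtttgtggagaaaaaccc
cbt, optimal, chr2L:480029-480094, minus strand: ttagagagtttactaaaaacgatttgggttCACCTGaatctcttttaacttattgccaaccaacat

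The pooled signal, which the authors gave on a scale not stated, is what separated the sets. Over the members it ran from 25.0 to 84.0 with a median of 39.2 and quartiles of 31.2 and 52.4. Over the optimal promoter peaks it ran from 84.0 to 1703 with a median of 123 and quartiles of 97.8 and 179. The 2 ranges do not overlap because the optimal list takes the highest signals.

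Promoters just outside the optimal list had values almost equal to those just inside. The last promoter peak inside was that of Cad96Cb, a cadherin gene, with a signal of 84.0 at rank 2697. The next in the pooled list, and the strongest member, was that of egl, which encodes an RNA adaptor of the dynein motor, with a signal of 84.0 at rank 2698. The egl peak held rank 3903 in replicate 1 and rank 2357 in replicate 3, and the Cad96Cb peak ranks 2919 and 2015. So the replicates placed both peaks close to the boundary.

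Other members just outside were at larp, RnrS, Cpsf100, CG9393, CG7272, Ehbp1, Ulp1 and CG11961, with signals from 83.8 to 84.0. They include genes of an RNA-binding protein (larp), the small subunit of ribonucleotide reductase (RnrS), an mRNA 3′ end processing factor (Cpsf100) and a SUMO protease (Ulp1). The RnrS peak ranked 1966 in replicate 1 and 5420 in replicate 3, and the Cpsf100 peak 7192 and 1476. At CG9393, whose sequence is shown above, the ranks were 2728 and 3269. Just inside, glec had ranks of 1606 and 3593, CG31140 of 8056 and 2071, and ATP8A, a lipid flippase gene, of 11407 and 1505. Uneven replicate ranks thus occurred on both sides of the boundary.

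At the other end of the list, the lowest members were those of CG5404, up (which encodes the muscle protein troponin T) and Cyp4g15, a cytochrome P450 gene, each with a signal of 25.0. Neither the up peak nor the Cyp4g15 peak had its summit in a peak of either replicate. The CG5404 peak was found in replicate 3 only, at rank 27598.

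More genes had a weak promoter peak than an optimal one, but the pooled list was also far longer than the optimal list (30000 against 2697 peaks). Among 13945 protein-coding genes, 1897 (13.6%) carried an optimal summit within 500 bp of a TSS, and 5480 (39.3%, Wilson 38.5 to 40.1%) had a weak summit there and no optimal one. The remaining 6568 genes (47.1%) had neither. In all, 6276 genes had a member at a start, 796 of them beside an optimal promoter peak of the same gene. Of the members, 5862 lay near 1 gene and 1359 near more than 1, so some genes share a member. Most of these genes had a single weak summit (4478), 1384 had 2 and 414 had 3 or more. The highest numbers were at SNF4Agamma, a subunit of AMP-activated kinase, with 8 weak summits around 11 TSS positions, and at fbl, a pantothenate kinase gene, with 7 around 6. Acsl, Diap1, Eip75B, Kank, Mob2 and Moe had 6 each. Of these genes, SNF4Agamma, Eip75B and Mob2 also had 1 optimal promoter summit each and Moe had 2, whereas fbl, Acsl, Diap1 and Kank had 0.

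Summits of weak peaks lay further into the gene than those of optimal peaks. The median distance from the nearest TSS was 156 bp for members and 91 bp for optimal promoter peaks. The summit was upstream of the TSS in 42.6% of members and 75.9% of optimal promoter peaks, an odds ratio of 0.236 (Fisher's exact test, two-sided, Benjamini-Hochberg adjusted over 7 features, adjusted exact p = 4.94e-124). It was within 100 bp of the TSS in 38.2% against 54.2% (odds ratio 0.522, adjusted exact p = 3.49e-29). Both differences kept their direction and passed the threshold under each of the 9 alternatives run. Peaks are not replicates, so these tests compare 2 classes of regions within 1 pooled list.

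**Figure D1:**
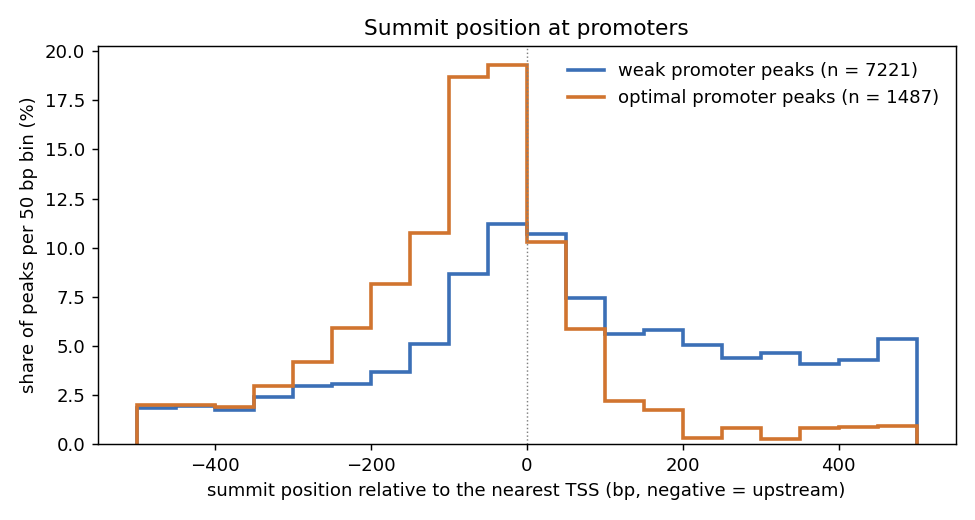
Share of summits (%) in each 50 bp bin around the nearest TSS, for 7221 weak and 1487 optimal promoter peaks, with negative positions upstream. The optimal peaks pile up in the 100 bp upstream of the TSS, with 18.7% and 19.3% in its 2 bins, whereas from 200 to 500 bp downstream each bin holds 4.07 to 5.37% of weak peaks and at most 0.941% of optimal ones.

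Many members therefore had their summit inside transcribed sequence. The summit was in a coding exon in 25.3% of members (1826 peaks, Wilson 24.3 to 26.3%) and in 1.21% of optimal promoter peaks (18 peaks, 0.767 to 1.91%). Outside any protein-coding gene lay 23.8% of member summits and 49.2% of optimal ones. Shares in untranslated exons were 30.3% and 25.5%, and in introns 18.8% and 22.1%. Base composition at the summit also differed: the median GC content within 100 bp of it was 46.8% for members and 39.3% for optimal promoter peaks. Around the nearest TSS the median GC content was 43.8% and 44.3%.

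These features changed along the signal ranks. The share of promoter peaks with an upstream summit was 75.9% in the optimal list, 53.8% in pooled ranks 2698 to 6000, 44.5% in ranks 6001 to 9000 and 36.9% in ranks 27001 to 30000. Over the same steps the median GC content at the summit was 39.3, 43.5, 46.3 and 48.3%. The strongest members thus lay between the optimal peaks and the weakest members in both measures. Within 100 bp of the TSS the first weak ranks did not stand apart, with 54.6% against 54.2% in the optimal list, and the share was 27.6% in the last ranks.

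The genes nearest to weak peaks also differed somewhat in layout, counted per peak and not per gene. Genes with several summits thus entered more than once, and 1042 members lay at genes that also had an optimal promoter peak. A start of another gene on the opposite strand lay within 1000 bp in 33.7% of members and 42.8% of optimal promoter peaks (odds ratio 0.678, adjusted exact p = 7.89e-11), which held under all 9 alternatives. Transcript starts more than 100 bp apart were found at 45.6% against 50.8% (odds ratio 0.812, adjusted exact p = 5.02e-04), and this difference was lost with promoters taken as 250 bp (odds ratio 0.944, adjusted exact p = 0.434). The X chromosome held 17.7% of members and 14.5% of optimal promoter peaks (odds ratio 1.27, adjusted exact p = 0.00290). The X difference missed the threshold in 3 of the 9 alternatives, 1 of them without replicate 1 (odds ratio 1.08, adjusted exact p = 0.349), with an odds ratio of 1.08 to 1.49 over all of them. Without a replicate, the other replicate's list stood in for the pooled list and its highest peaks for the optimal list. Members lay less often at genes longer than the median gene (69.2% against 73.8%, odds ratio 0.797, adjusted exact p = 5.51e-04) and at genes with an intron over 1000 bp (46.6% against 50.4%, odds ratio 0.859, adjusted exact p = 0.00798). With promoters of 250 bp those last 2 odds ratios were 1.02 and 1.14 and did not pass. Each also missed the threshold in 2 more alternatives, for the introns 1 of them without replicate 1 (odds ratio 0.895, adjusted exact p = 0.0707).

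Several core promoter words were rarer at the summits of weak peaks, whereas the Initiator word did not pass the test. Of 17 words searched on both strands within 100 bp of the summit, 8 were found in a lower share of members than of optimal promoter peaks, 2 in a higher share, and 7 did not pass (Fisher's exact test, two-sided, adjusted over the 17). The Ohler motif 7 core CANCNCTA was in 9.72% of members and 19.7% of optimal promoter peaks (odds ratio 0.439, adjusted exact p = 7.90e-24). The Dref word TATCGATA was in 4.03% and 8.47% (odds ratio 0.454, adjusted exact p = 7.44e-11), and the TATA word TATAAA in 16.2% and 25.7% (odds ratio 0.559, adjusted exact p = 4.52e-16). Windows of the same length around all 19252 annotated TSS positions held these 3 words in 11.0%, 6.45% and 26.9%. Those windows are centred on the TSS and not on summits, so they give a background and no direction.

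The 2 remaining core words that were rarer at members were those of M1BP and Ohler motif 6. The M1BP word GGTCACAC was in 3.64% of members, 5.38% of optimal promoter peaks and 5.68% of all TSS windows (odds ratio 0.665, adjusted exact p = 0.00442). Its difference missed the threshold with 250 bp promoters, with only the weak peaks above their median signal or without replicate 1, and the odds ratio was 1.05 against the optimal peaks above their median signal. The word GGTATTTT of Ohler motif 6 was in 2.49%, 3.97% and 3.63% (odds ratio 0.619, adjusted exact p = 0.00423), which missed the threshold without replicate 1 (adjusted exact p = 0.0706) and against the optimal peaks above their median signal (adjusted exact p = 0.132). Weak peaks elsewhere in the genome held the Dref word in 0.254% and the M1BP word in 0.329% of windows.

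The homeodomain words were rarer at members too. The reported Repo site CAATTA was in 12.7% of members, 17.4% of optimal promoter peaks and 14.5% of all TSS windows (odds ratio 0.692, adjusted exact p = 8.27e-06). Without replicate 3 its odds ratio was 0.859 and did not pass (adjusted exact p = 0.0847). The homeodomain words TAATTA (7.69% against 12.8%, odds ratio 0.565, adjusted exact p = 3.40e-09) and TAATGA (6.81% against 9.41%, odds ratio 0.703, adjusted exact p = 0.00158) went the same way, and all TSS windows held them in 9.39% and 8.50%. With 250 bp promoters TAATGA missed the threshold (adjusted exact p = 0.0567).

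Higher shares at members were found for the Snail E-box and for a word of the early embryonic activator Zelda. The E-box CACCTG was in 10.4% of members, 5.99% of optimal promoter peaks, 6.67% of all TSS windows and 11.2% of weak peaks outside promoters (odds ratio 1.82, adjusted exact p = 1.87e-07). CAGGTA was in 5.25%, 3.36%, 4.26% and 4.75% (odds ratio 1.59, adjusted exact p = 0.00409), and its difference missed the threshold against the optimal peaks above their median signal (adjusted exact p = 0.0754). Members stood near the other weak peaks in both. Neither of the other E-boxes passed, CAGCTG of Ohler motif 5 or CACGTG of the Myc and Max family. Also without a passing difference were the GAGA factor word GAGAGAG, the Initiator word TCAGT and the words CCGGAAG for Ets, AGATAAG for GATA and TGAGTCA for AP-1 factors. The odds ratios of these 7 ran from 0.760 to 1.66. For GAGAGAG the direction depended on the setting: it passed as more frequent at members with 250 bp promoters (odds ratio 1.49, adjusted exact p = 0.0180) and as less frequent with windows of 200 bp on either side of the summit (odds ratio 0.721, adjusted exact p = 2.88e-04). A single stretch can hold more than 1 of the homeodomain words, and the Zelda word shares a run of letters with the reverse complement of the Snail E-box.

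Most of these differences were not found when the windows were centred on the TSS in place of the summit. In windows within 100 bp of the nearest TSS, the Dref word was at 8.97% of members and 9.95% of optimal promoter peaks, beside 6.45% of all TSS windows (adjusted exact p = 0.455), and the Repo site at 13.03% and 13.38% (adjusted exact p = 0.798). The TATA word was at 22.2% and 19.2% (odds ratio 1.20, adjusted exact p = 0.0541), the M1BP word at 8.84% and 7.26% (odds ratio 1.24, adjusted exact p = 0.159) and CACCTG at 6.91% and 6.32% (adjusted exact p = 0.608). The Ohler motif 7 core kept its difference, with 12.96% against 20.85% (odds ratio 0.565, adjusted exact p = 6.51e-13). CAGCTG, which had not passed at summits, was at 15.3% and 18.8% there (odds ratio 0.781, adjusted exact p = 0.00898). These 2 were the only words past the threshold around the TSS, where both sets had nearly the same GC content. The part of summit position and base composition in the differences at summits was not tested further.

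**Figure D2:**
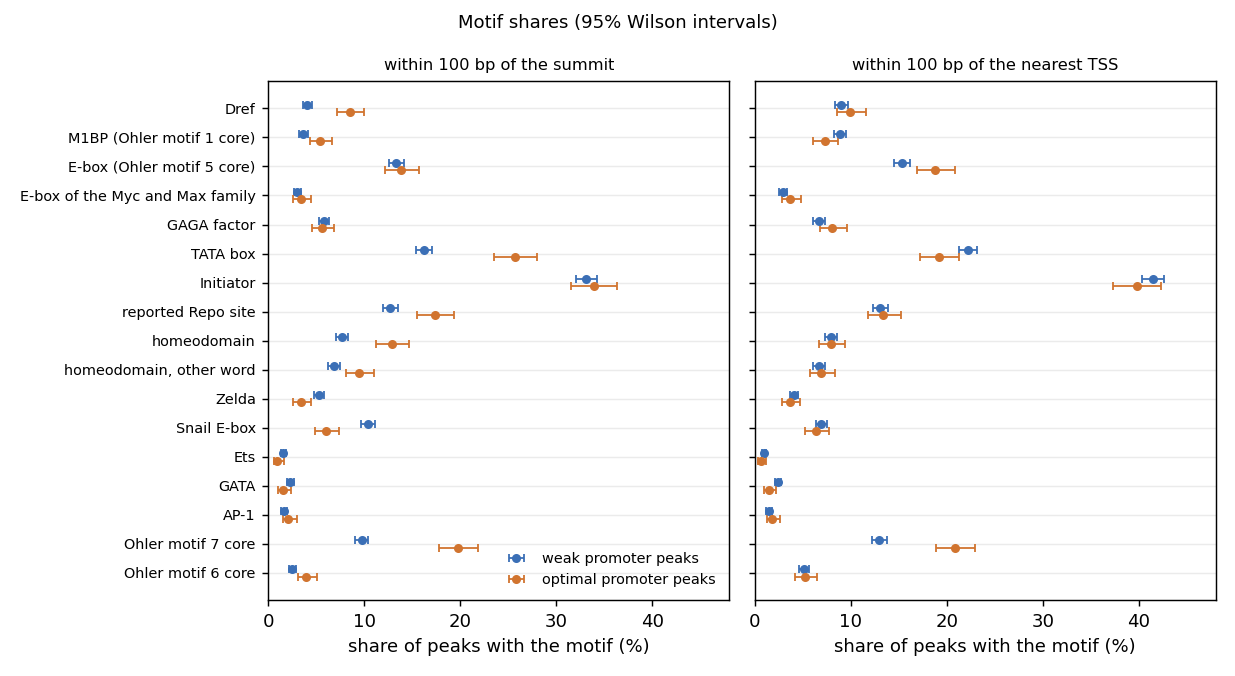
Share of peaks (%) with each of 17 words, named by factor, within 100 bp of the summit (left) and of the nearest TSS (right). Points are weak and optimal promoter peaks, and bars are Wilson 95% intervals; the intervals of the Ohler motif 7 core stay apart in both panels, whereas those of the Dref word and the Repo site overlap around the TSS.

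Which genes stayed below the optimal list was described with 38 gene lists, each set beside the shares over all protein-coding genes, 13.6% with an optimal promoter peak and 39.3% with a weak one only. No list was tested. A peak counted for every gene with a TSS within 500 bp of its summit. Some peaks named below thus lie nearer to another gene, among them those given for Vps45, Nup50, TfIIB, MED31, Vha44 and orb. At glial genes, repo itself had an optimal promoter peak with a signal of 94.1 (rank 2198). Of the 35 glial genes, 14 (40.0%) had an optimal promoter peak, 16 (45.7%) a weak one only and 5 neither. The optimal ones included moody, a receptor of the blood-brain barrier, with a signal of 395, and nrv1, a sodium pump subunit, with 260.

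The 16 glial promoters below the optimal list covered several functions, with signals from 25.5 to 82.2. Among regulators of glial fate, gcm2 had a signal of 73.0 and ranks of 2791 in replicate 1 and 9640 in replicate 3. The peak at gcm, which starts glial development, had a signal of 34.9, rank 8463 in replicate 1 and no peak in replicate 3. The zinc finger genes ttk and zfh1 had signals of 65.5 and 48.7, and zfh1 was found in replicate 3 only, at rank 3323. Thus 2 of these 4 regulators were supported by both replicates.

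Among receptors and adhesion proteins, and over all 16, the strongest was drpr, the engulfment receptor, with a signal of 82.2 and ranks of 2162 and 4172. The Fgf receptor gene htl had 70.6 and ranks of 2215 and 15059. The adhesion gene Nrt had 65.0 with ranks of 8512 and 4152.

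Septate junction genes, whose proteins seal the glial barrier, fell on both sides. Below the optimal list were vari with a signal of 68.5, Gli with 62.3, Nrx-IV with 46.5, sinu with 37.4 and Cont with 31.1. The sinu and Cont peaks had support from replicate 1 only, at ranks 12819 and 11991. In the optimal list were Lac with 116, Nrg with 104, cold with 104 and nrv2 with 88.3, and crok had neither kind of peak. The strongest member within 500 bp of a TSS of bou, with 34.4, also lay at ogre, which had an optimal promoter peak.

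Transporter and enzyme genes of mature glia were lowest. The peaks of Eaat1 (glutamate uptake), Gs2 (glutamine synthesis) and Tret1-1 (trehalose transport) had signals of 25.8, 29.0 and 25.5. Eaat1 was in neither replicate's list at the pooled summit, and Gs2 and Tret1-1 were in that of replicate 1 only. Eaat2, Gat, alrm and Mdr65 had neither a weak nor an optimal promoter peak.

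Of the lists of protein synthesis genes, that of the cytoplasmic ribosome lay mainly on the optimal side. The other 3 held more weak-only than optimal genes, as did all protein-coding genes (39.3% against 13.6%). Of 92 cytoplasmic ribosomal protein genes, 55 (59.8%) had an optimal promoter peak, 23 (25.0%) a weak one only and 14 neither. The highest of the 23 were RpS2 (80.0), RpL36A (78.7), RpL35 (75.4) and RpL10Ab (71.6), against 552 at RpS27. The 23 had a median signal of 58.5, above the 43.1 over all 5480 genes with a weak peak only. Of 73 mitochondrial ribosomal protein genes, 18 (24.7%) were optimal and 36 (49.3%) weak only, led by mRpS7 (81.4) and mRpL22 (74.1). Translation factors split into 14 (27.5%) optimal and 21 (41.2%) weak only of 51. The weak ones were led by eIF3d1 (82.8), a subunit of the initiation factor that binds the small ribosomal subunit. Of 32 tRNA synthetase genes, 6 (18.8%) were optimal and 17 (53.1%) weak only, with GlnRS highest at 67.6.

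Other broadly used machines were more often weak only than optimal, as were all protein-coding genes (39.3% against 13.6%). Of 23 spliceosome genes, 14 (60.9%) were weak only and 2 (8.70%) optimal. The highest weak one was Prp3 (81.0), and LSm7 (64.2) ranked 29718 in replicate 1 and 2430 in replicate 3. Nuclear pore genes had 14 of 21 (66.7%) weak only and 4 (19.0%) optimal, with Nup50 highest at 66.3. Nup37, with 552, shares its optimal peak with RpS27. Replication licensing and cyclin genes had 15 of 24 (62.5%) weak only and 3 (12.5%) optimal. There the cyclin genes CycG, CycE and CycB had signals of 74.5, 74.3 and 69.6.

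Proteasome genes had 22 of 48 (45.8%) weak only and 8 (16.7%) optimal, near the shares over all genes, with Prosbeta5, a catalytic subunit, highest at 82.4. Respiratory chain genes had 43 of 87 (49.4%) weak only and 13 (14.9%) optimal, the latter close to the share over all genes. The highest were ND-B18 (79.8), of complex I, and UQCR-14 (73.9), of complex III. Vesicle traffic genes of the Vps and Rab families had 28 of 63 (44.4%) weak only and 15 (23.8%) optimal. Vps45 (83.9), whose peak is the CG9393 peak named above, and Rab40 (83.0) were just below the optimal list. Rab14 (82.8) ranked 1392 in replicate 1 with no peak in replicate 3.

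Further lists of general transcription and transport had optimal shares from 16.7 to 32.0%, against 13.6% over all genes. TFIID and general factors had 13 of 24 (54.2%) weak only and 4 (16.7%) optimal. Mediator had 11 (44.0%) and 8 (32.0%) of 25, and vacuolar ATPase 12 (36.4%) and 9 (27.3%) of 33. Among them TfIIB had a signal of 74.6, MED31 of 79.5 and Vha44 of 77.9. Heat shock genes had 7 of 24 (29.2%) weak only, led by Hsc70-4 (74.9), and 5 (20.8%) optimal, led by Hsp83 (319).

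Most genes of body plan and signalling had a weak promoter peak only. Of 30 Hox and segmentation genes, 23 (76.7%) were weak only, 2 (6.67%) optimal and 5 neither. Over all protein-coding genes the shares were 39.3% weak only and 13.6% optimal. The 2 optimal genes were bcd, a maternal anterior factor, and wg, the Wnt ligand. The weak ones included sog, an inhibitor of Dpp, at 75.4, the pair-rule gene odd at 63.5 and the Hox genes Scr and Dfd at 57.1 and 56.9. The Scr and Dfd peaks ranked 3993 and 2937 in replicate 1 and 21136 and 17812 in replicate 3. Both stood far higher in replicate 1. Their list had a median signal of 40.5, below that over all genes with a weak peak only. Of the 23, 13 (56.5%) were supported by both replicates, near the 57.4% over all genes with a weak peak only.

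Of 33 genes of the Notch, Egfr and Fgf pathways, 20 (60.6%) were weak only and 8 (24.2%) optimal. Over all genes the shares were 39.3% and 13.6%. The receptor gene N had a signal of 69.6, the Ras activator gene Sos 71.4 and the adaptor gene drk 67.4. The Egfr ligand gene spi and Ras85D were optimal, with 329 and 167. Chromatin genes had optimal shares above the 13.6% over all genes: 7 of 23 (30.4%) Polycomb and trithorax genes and 8 of 18 (44.4%) insulator and cohesin genes. Their weak-only numbers were 11 (47.8%) and 7 (38.9%), beside 39.3% over all genes. Highest among these were Su(z)2 (83.3), esc (81.5), osa (75.3), SMC1 (79.0) and M1BP (72.9).

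Lists of other cell types had optimal shares from 5.56 to 21.4% and weak-only shares from 35.3 to 53.3%, around the 13.6% and 39.3% over all genes. Neuron genes had 11 of 22 weak only and 2 optimal, elav and Nrx-1, and the weak ones had a median signal of 30.5. The highest was scrt, a neuronal zinc finger gene, at 74.0. Neuroblast genes had 9 of 19 weak only, muscle genes 11 of 22, hemocyte genes 6 of 17, epidermis and trachea genes 8 of 15, gut and fat body genes 9 of 18 and germline genes 7 of 14. Optimal promoters numbered 2, 3, 1, 2, 1 and 3 in the same order. The strongest weak peaks there were pdm3 (71.5), sns (76.3), ush (80.5), rib (75.3), cad (62.9) and orb (82.8). The sns peak, at a gene of myoblast fusion, ranked 19310 in replicate 1 and 1654 in replicate 3, and the ush peak 1347 and 23339.

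Chemosensory, cuticle and digestive families had fewer promoter peaks of either kind than the average gene. Of 179 chemoreceptor genes, 12 (6.70%) were weak only and 1 optimal, and of 51 odorant-binding protein genes 9 and 1. Cpr cuticle genes had 17 of 70 (24.3%) weak only, Tweedle and Osiris genes 13 of 50, UDP-glycosyltransferases 10 of 35 and digestive proteases 7 of 27, each with 0 optimal. Cytochrome P450 genes had 19 of 83 weak only and 2 optimal. Receptor and channel genes of neurons had 13 of 35 (37.1%) weak only, near the 39.3% over all genes, and 0 optimal, with sei, a potassium channel gene, highest at 81.6. Glutathione S-transferases, with 14 of 35 weak only and 3 optimal, were near the shares over all genes.

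In several of these families the weak peaks that did occur had low signals. The 17 Cpr genes had a median signal of 27.6 and 3 of them were in both replicates. The 19 P450 genes had a median of 30.4 with 3 in both, and the 12 chemoreceptor genes 31.9 with 2 in both. Over all 5480 genes with a weak peak only, the median was 43.1 and 3147 (57.4%) had their highest member in both replicates. Seminal fluid genes had 3 of 45 weak only and antimicrobial peptide genes 2 of 14. Of 115 histone genes, 111 had neither kind of peak, but most are near-identical repeated copies to which reads may not map uniquely. The 2 weak-only histone genes, His3.3A and His3.3B, are single genes outside the repeats.

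**Figure D3:**
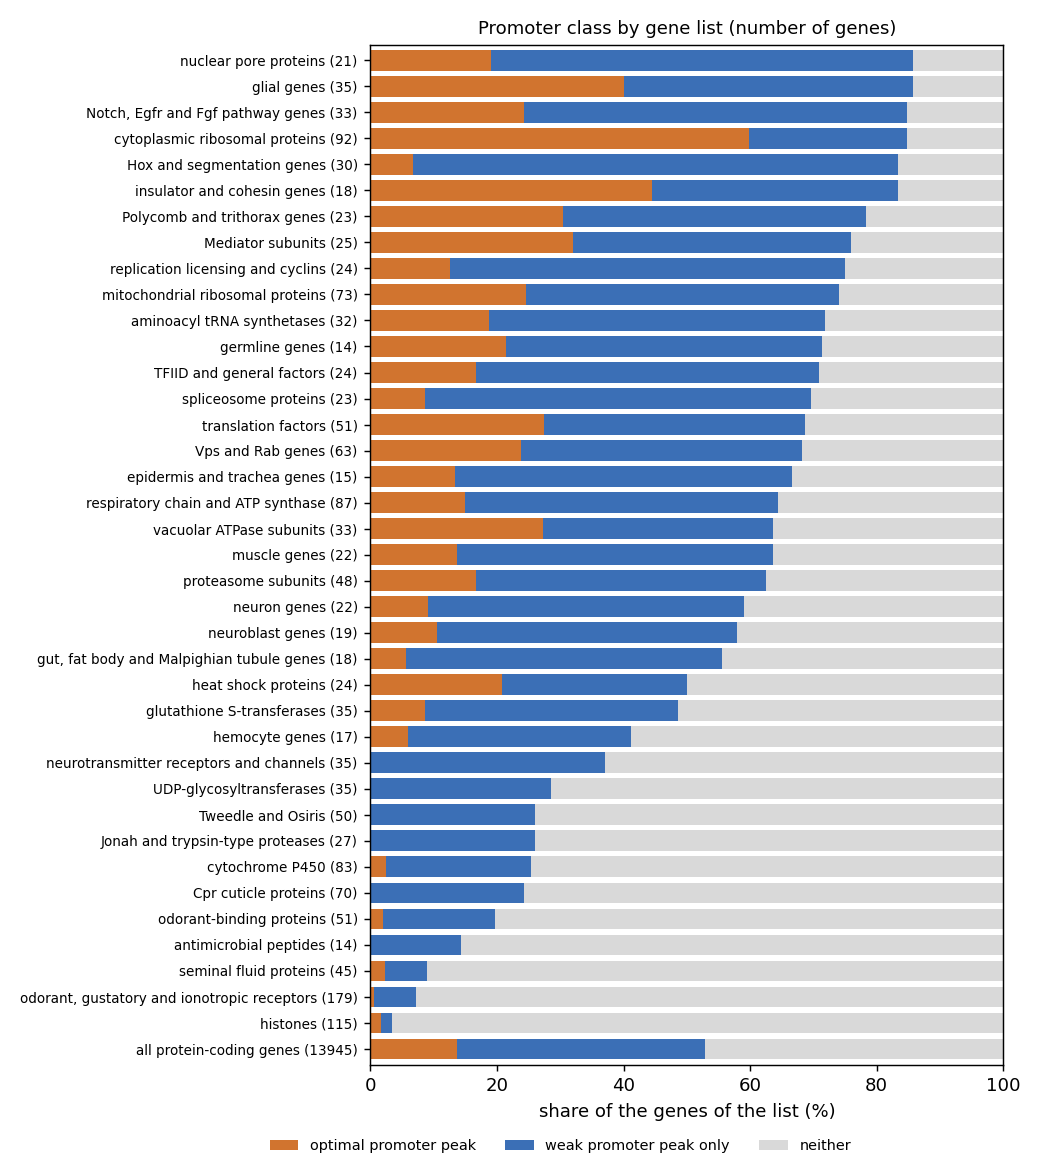
Share of the genes of each list (%) with an optimal promoter peak, a weak one only, or neither, with the number of genes in brackets and all 13945 protein-coding genes at the bottom. Cytoplasmic ribosomal protein genes have the widest optimal bar (59.8%), Hox and segmentation genes the widest weak-only bar (76.7%), and chemoreceptor and histone genes are nearly all without a peak.

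Replicate support was partial. Of the 7221 members, 3673 (50.9%, Wilson 49.7 to 52.0%) were found in both replicates, that is, each replicate's own list had a peak over the pooled summit. A further 1862 (25.8%) were in replicate 1 only, 1385 (19.2%) in replicate 3 only and 301 (4.17%) in neither. Of the optimal promoter peaks, 99.3% were in both. The pooled and optimal lists were made from these replicates, so these shares describe the lists and are no independent check.

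Support followed rank. In pooled ranks 2698 to 6000, 91.2% of members were in both replicates. The share was 78.0% in ranks 6001 to 9000, 47.9% in ranks 12001 to 15000 and 5.93% in ranks 27001 to 30000. In that last range 20.7% of members were in neither list. Each replicate list held 30000 peaks, as many as the pooled list.

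Over all ranks members had more support than weak peaks elsewhere, but at equal rank the order changed along the list. Over all ranks both replicates held 39.7% of weak intron peaks, 35.0% of weak coding exon peaks and 38.8% of weak intergenic peaks. Promoters made up 46.9% of weak peaks in ranks 2698 to 6000 and 18.0% in ranks 27001 to 30000. Within ranks 2698 to 6000 the share in both was 91.2% for promoters (Wilson 89.6 to 92.5%), 94.9% for introns (93.3 to 96.1%) and 96.0% for coding exons (93.1 to 97.7%). In ranks 21001 to 24000 promoters stood higher, with 15.9% (13.1 to 19.1%) against 11.4% for introns (9.47 to 13.6%). Differences within a range of ranks were thus small beside the fall across ranks.

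**Figure D4:**
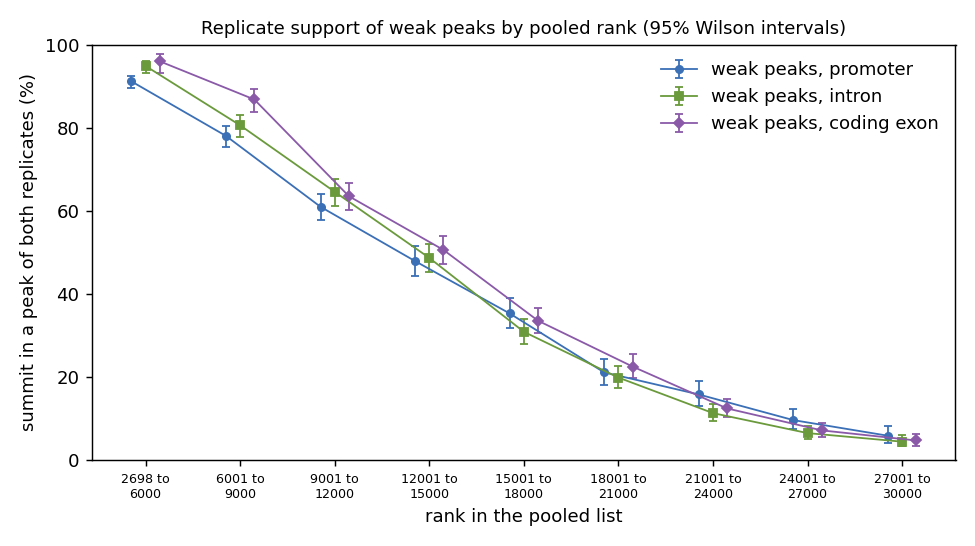
Share of weak peaks (%) with the summit inside a peak of both replicates, by rank range of the pooled list, for promoters, introns and coding exons, with Wilson 95% intervals. All 3 classes fall together, for promoters from 91.2% to 5.93%.

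Few members were strong in both replicates, and the rule largely fixes this, since the pooled and optimal lists were made from these replicates. Among the 2697 highest peaks of each replicate, 21 members were in both sets, 384 in that of replicate 1 only and 232 in that of replicate 3 only. For the optimal promoter peaks these numbers were 1037, 213 and 213. The Spearman correlation of the signals of replicates 1 and 3 was 0.232 across 3673 members and 0.645 across 1476 optimal promoter peaks. It is a description across peaks of the same 2 libraries, and the members span a narrow signal range by the rule. The pooled summit had a replicate summit within 50 bp in 56.1% (replicate 1) and 52.0% (replicate 3) of members. For optimal promoter peaks these shares were 87.2% and 89.4%. They are taken over all peaks, so members without a replicate peak lower them. Where a replicate peak lay over the pooled summit, the median distance to the nearest replicate summit was 14 bp (replicate 1) and 18 bp (replicate 3) for members. It was 8 and 13 bp for optimal promoter peaks.

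**Figure D5:**
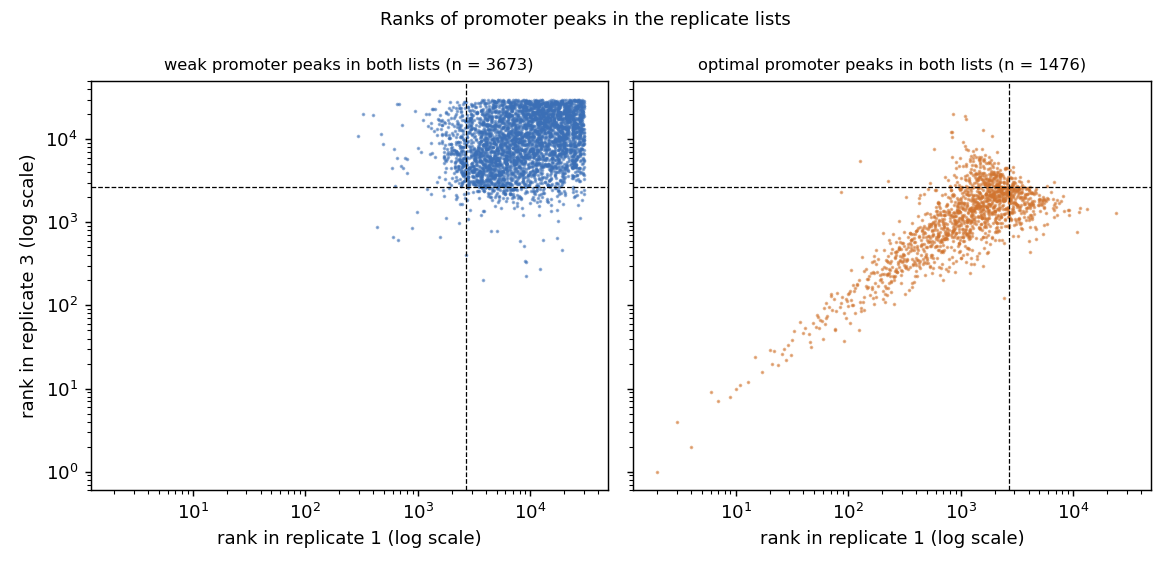
Rank in replicate 1 against rank in replicate 3 (log scales) for promoter peaks found in both lists, 3673 weak and 1476 optimal ones; dashed lines mark rank 2697. Weak peaks fill the corner of low ranks in both with 21 peaks inside both lines, whereas optimal peaks run along the diagonal.

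Some of the high replicate ranks belonged to a stronger neighbour. A member can lie on the flank of an optimal peak, and 308 members overlapped one. The members with the best ranks in both replicates were Brca2 (661 and 612), CG14968, Hakai, CG17260 and Kap3, all at genes that also had an optimal promoter peak. CG17260 had pooled rank 26577 but replicate ranks of 890 and 863. Where the matched replicate peak has its own summit in an optimal peak, the rank is that of the neighbour. Among members without a peak in replicate 3, the highest ranks in replicate 1 were at CG12299 (355), eEF5 (462), CG3165 (596), CG8788 (641) and TP53INP (899). The other way round they were at lqfR (639), Hacl (657), pns (1055), AP-1gamma (1107) and IleRS (1278). Of these 10, all but AP-1gamma lay at genes with an optimal promoter peak. The matched replicate peaks of CG8788 and AP-1gamma had their own summits in no optimal peak, so those ranks are not a neighbour's.

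Replicate peaks with their own summit in an optimal peak were therefore set aside, a choice made after seeing these ranks. Then 3557 members (49.3%, Wilson 48.1 to 50.4%) were in both replicates and 6 were among the 2697 highest of both. The best of the 6 included CG6770 with ranks of 1306 and 2166, ttv, a heparan sulfate synthesis gene, with 2234 and 2040, and jar, the gene of a myosin, with 1689 and 2482. In replicate 1, CG8788 was at rank 641, Su(z)2, a Polycomb group gene, at 1131 and Atg1, a kinase gene of autophagy, at 1259. These had no peak in replicate 3. In the other direction AP-1gamma, a clathrin adaptor gene, was at rank 1107 in replicate 3, and the kinase genes p38a and Pi3K92E at 1532 and 1544, with no peak in replicate 1. Counted this way, 90 members were among the highest 2697 of replicate 1 with no peak in replicate 3, and 41 the other way round.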

How the data were processed

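Peak lists of repo-GFP embryos on the dm6 build were used: 1 per replicate, 1 pooled and 1 optimal. Per the deposited text files, the first 3 hold peaks and background made as input for IDR, and the optimal list is IDR-thresholded; they derive from alignments and 1 further file not described there. Which aligner, peak caller, control and IDR threshold were used is not given in the sources used here. The deposited signal per peak is the authors' own value on a scale not stated, and was used to rank and describe peaks within a list. The deposited score giving each summit's offset from the peak start, in bp, placed the summit. Read depth is unknown here, so Wilson 95% intervals cover counting error over peaks only. The dm3 lists were not used. The lists on dm6 had 0 peaks past the end of a reference chromosome.

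Protein-coding TSSs came from Ensembl release 115 (BDGP6.54). Shares of 17 words and 7 promoter features were compared with two-sided exact tests (Fisher), Benjamini-Hochberg adjusted, at a threshold of 0.05, in Python 3.11.15 with scipy 1.17.1, numpy 2.4.6 and pandas 2.3.3; scripts were tested on simulated data. Nothing else was tested. Members, lists, words and naming rules were chosen with earlier results of these data known. Named genes were the glial list, the 10 strongest members (1 is not reported here) and the 3 weakest, peaks at the list boundary, members of extreme replicate ranks, genes with the most weak summits, and up to 4 weak-only and 2 optimal genes of each list by signal. Of the listed names 7 did not match and were not used; 3 lists of symbol patterns were corrected for misnamed genes after the files were opened. Sequences came from the RefSeq dm6 genome. Alternatives changed the promoter distance, the weak definition, the optimal list, the replicates, the windows, the match rule and the TSS set.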

Additional observations from a re-analysis of the deposited data

How the results depend on the processing

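Of the counts, 7221 members became 4793 with promoters of 250 bp, 11067 with 1000 bp and 4530 when only weak peaks above their median signal were kept, as those settings take in fewer or more positions. Against the optimal peaks above their median signal, 1025 genes had an optimal promoter peak. Under each promoter distance, the gene counts of the weak-only class stayed within 1.5 times of 5480. Leaving out replicate 1 or 3 put the other replicate's list in place of the pooled one. That replicate's highest peaks then stood in place of the optimal list, so both classes differ from those of the main comparison. The members numbered 6508 and 7380, and genes with a weak peak only 5211 and 5475. Genes with a promoter peak among those highest peaks numbered 1812 and 1926. There were 6 and 8 words of lower share, 2 and 2 of higher share, and 5 and 7 features past the threshold. Replicate support could not be counted there, since the list was the replicate itself. Words of higher share numbered 4 with 250 bp promoters and 1 against the optimal peaks above their median signal. Features past the threshold numbered 4 with 250 bp promoters. Around the TSS, 2 words of lower share and 0 of higher share passed. Where words stopped passing, the cause was not tested.

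Reversed odds ratios were as follows. With 250 bp promoters they were 1.10 for TCAGT, 1.02 for long genes and 1.14 for long introns, and with 1000 bp promoters 1.02 for CAGCTG and 0.854 for GAGAGAG. Leaving out replicates gave 0.880 (without replicate 3) and 1.04 (without replicate 1) for GAGAGAG, and 1.05 and 0.811 for TGAGTCA. Against the optimal peaks above their median signal they were 1.05 for GGTCACAC and 0.839 for AGATAAG. With only members of genes without an optimal promoter peak, GAGAGAG had 0.960, and with windows of 200 bp 0.721. Around the TSS they were 1.24 for GGTCACAC, 0.813 for GAGAGAG, 1.20 for TATAAA, 1.07 for TCAGT and 1.00 for TAATTA. Of all odds ratios recomputed, 204 kept their direction and side of the threshold, 22 no longer passed, 8 newly passed and 16 changed direction. No paired analysis was possible because there was 1 group.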
